A study of Mus musculus with 12 samples.

Results

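The interferon regulatory factors (IRFs) were followed in a map of accessible chromatin of mouse blood cells, through the 8 genes Irf1, Irf2, Irf3, Irf4, Irf5, Irf7, Irf8 and Irf9. Every peak of the master peak-list for which one of these genes is the nearest promoter was taken, which gave 84 peaks of 84243, or 0.0997%. For Irf8, all peaks centred within 100 kb of its transcription start site (TSS) were added, and with these the number was 92. ATAC-seq, which marks exposed DNA by the adapters that a transposase inserts there, had been run on 12 samples, 2 replicates of each of 6 cell types sorted from wild-type C57BL/6 mice aged 8 to 12 weeks. These were hematopoietic stem cells (HSC, cKit+ Lin- Sca1+ Flk2- Slamf1+), megakaryocyte progenitors (MkP, cKit+ Lin- Sca1- Slamf1- CD41+), erythroid progenitors (EP, CD71+ with or without Ter119), granulocyte/macrophages (GM, Gr1+ Mac1+), B cells (CD43- B220+) and T cells (CD25- CD3+, with CD4 and CD8 either way). The source was bone marrow, except that the labels give thymus for the T cells. No mouse was treated and no gene was deleted, so the 6 sorted populations are the only groups.

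The file analyzed is 1 list pooled over all 12 samples. It holds 0 columns of values per sample and does not name the cell type of a peak, so a peak shows only that the site was accessible in at least 1 of the 6 cell types. No level by cell type, no error between replicates and no test could be obtained for the IRF genes, and all counts are descriptions. The depth is unknown. Every peak is 499 bp wide and its score is 0. Of 18 marker genes of the 6 cell types, 16 had a promoter peak in the list, as did 60.4% of all protein-coding genes. The exceptions were Elane of GMs and Ebf1 of B cells, with the nearest of their peaks at 1211 and 913 bp.

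IRFs are transcription factors that share an amino-terminal DNA-binding domain, which recognizes GAAA. A pair of such half-sites makes an interferon-stimulated response element (ISRE). IRF3 and IRF7 are activated by kinases downstream of sensors of viral nucleic acid and induce type I interferon genes, and IRF9 is the DNA-binding subunit of ISGF3, a complex that forms in response to interferon. IRF4 and IRF8 bind DNA weakly alone and pair with PU.1 or Spi-B at Ets-IRF composite elements (EICE) and with BATF and AP-1 factors elsewhere, and IRF8 is known for its part in monocyte, dendritic cell and B cell development. Interferon-γ induces Irf1 through a gamma-activated site (GAS) in its promoter.

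Sequence was read from the RefSeq genome of GRCm38, the assembly named mm10, and is printed 5′ to 3′ on the strand given. The first sequences are shown because they hold the matches of IRF-type elements that lie in the central 200 bp of a peak of an IRF gene. The ISRE was searched as a pair of GAAA half-sites in the same direction with 2 bases between them, and the EICE as GGAA followed after 2 bases by GAAA, on either strand and without mismatches. Capitals mark the match. The Irf4 ISRE stretch holds 3 half-sites in a row, so that 2 matches overlap. The EICE of the Irf5 last exon is shown with few flanking bases because it lies in an untranslated region.
Irf4 ISRE, peak at -10747 bp, chr13:30738445-30738510, minus strand: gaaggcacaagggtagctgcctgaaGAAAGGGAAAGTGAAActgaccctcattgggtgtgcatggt
Irf4 EICE, peak at -20869 bp, chr13:30728347-30728406, minus strand: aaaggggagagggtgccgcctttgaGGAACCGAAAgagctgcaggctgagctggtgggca
Irf8 EICE, peak at 38408 bp, chr8:120774778-120774837, plus strand: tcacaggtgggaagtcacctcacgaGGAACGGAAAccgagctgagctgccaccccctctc
Irf5 EICE, promoter peak, chr6:29529174-29529233, minus strand: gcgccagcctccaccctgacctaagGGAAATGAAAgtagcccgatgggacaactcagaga
Irf5 EICE, last exon, chr6:29536931-29536960, minus strand: aatgtttaggGGAAATGAAAcctcaggcct
Irf2 EICE, peak at 38535 bp, chr8:46778193-46778252, minus strand: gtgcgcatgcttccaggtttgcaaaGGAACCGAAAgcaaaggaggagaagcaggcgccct
Irf2 EICE, peak at 49847 bp, chr8:46789572-46789631, minus strand: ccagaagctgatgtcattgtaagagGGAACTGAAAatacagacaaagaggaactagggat
Irf2 EICE, peak at 53131 bp, chr8:46792796-46792855, plus strand: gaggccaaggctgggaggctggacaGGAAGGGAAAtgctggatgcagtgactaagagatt

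The second set is from promoter peaks. It is shown because 4 of the 8 promoter peaks hold the GAS spacing, searched as TTC, any 3 bases and GAA, which capitals mark except in the first line. That line, from the Irf2 promoter, has an EICE and an ISRE match overlapping by 4 bases, and capitals mark both. Its bases overlap an exon of Gm16675, a noncoding gene on the other strand. The stretches of Irf1, Irf2 and Irf8 end at the base before the TSS. That of Irf2 starts at the base after the TSS of the noncoding gene Gm16675, and that of Irf3, which has no match, covers the bases between the TSSs of Bcl2l12 and Irf3.
Irf2 ISRE and EICE, promoter, chr8:46739491-46739520, plus strand: gacgtggGGAAGTGAAAATGAAAttgactt
Irf1 GAS, promoter, chr11:53769904-53770013, plus strand: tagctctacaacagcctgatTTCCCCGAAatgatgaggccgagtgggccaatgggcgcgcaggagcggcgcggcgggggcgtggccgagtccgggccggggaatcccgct
Irf2 GAS, promoter, chr8:46739516-46739744, plus strand: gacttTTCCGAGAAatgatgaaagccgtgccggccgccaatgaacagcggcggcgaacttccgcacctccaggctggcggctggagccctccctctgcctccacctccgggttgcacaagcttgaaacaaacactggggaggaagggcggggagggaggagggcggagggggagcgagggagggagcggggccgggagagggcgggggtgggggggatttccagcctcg
Irf8 GAS, promoter, chr8:120736167-120736357, plus strand: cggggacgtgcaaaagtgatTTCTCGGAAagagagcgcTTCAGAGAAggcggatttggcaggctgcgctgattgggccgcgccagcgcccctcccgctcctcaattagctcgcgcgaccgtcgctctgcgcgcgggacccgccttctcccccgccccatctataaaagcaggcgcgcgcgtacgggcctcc
Irf9 GAS, exon 1, chr14:55604114-55604142, plus strand: accacgtggtTTCTAGGAAatgcacctcc
Irf3 and Bcl2l12, between TSSs, chr7:44997580-44997647, plus strand: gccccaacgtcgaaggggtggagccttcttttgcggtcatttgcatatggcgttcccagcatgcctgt

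Peaks were unequally shared among the IRF genes. Irf2, Irf4 and Irf8 had 22 peaks each, together 66 of the 84 (78.6%), while Irf1 had 7, Irf5 had 5, Irf7 had 3, Irf3 had 2 and Irf9 had 1. Among the 19041 genes that are the nearest promoter of any peak, the median was 3 peaks and 279 genes (1.47%) had 22 or more. At least as many as Irf1 were found for 19.6% of these genes, as Irf5 for 31.8%, as Irf7 for 54.9% and as Irf3 for 74.6%. A count by nearest promoter also depends on how close the neighbouring promoters are. Counted within 100 kb of the RefSeq Select TSS without regard to the nearest promoter, Irf8 had 30 peaks, Irf4 had 28, Irf3 had 24, Irf2 and Irf7 had 23, Irf9 had 20, Irf1 had 19 and Irf5 had 12. The median over 20963 protein-coding genes was 12, with quartiles of 5 and 18. By this count Irf8 was matched or exceeded by 3.14% of genes, Irf4 by 4.68%, Irf3 by 10.7%, and Irf2 and Irf7 each by 12.8%. For Irf9 the share was 20.6%, for Irf1 23.6% and for Irf5 50.1%. Irf3, Irf7 and Irf9 had 11, 12 and 17 other genes with a TSS in the same window, against 0 for Irf2, 1 for Irf4 and 2 for Irf8.

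**Figure D1:**
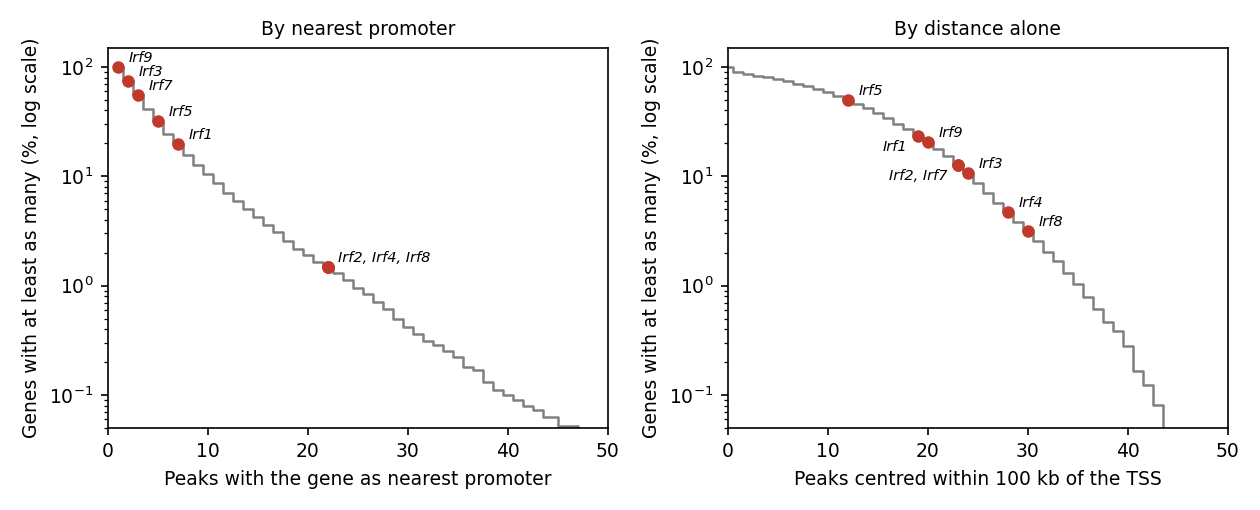
Share of genes (%, log scale) with at least as many peaks as the number on the horizontal axis, over the 19041 genes in the list by nearest promoter (left) and over 20963 protein-coding genes within 100 kb of the TSS (right), with the 8 IRF genes as points. Irf2, Irf4 and Irf8 lie together at 22 peaks on the left. In the right panel Irf8 (30) and Irf4 (28) lie farther right and lower than the other members.

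Each of the 8 genes had exactly 1 promoter peak, with the centre within 500 bp of a TSS. A promoter peak was present for 12685 of 21000 protein-coding genes, or 60.4%. In 6 of the 8 genes the centre was within 100 bp of a TSS, and Irf2 and Irf9 were the exceptions. Promoter peaks were 9.52% of the IRF peaks (95% Wilson interval 4.91 to 17.7%, here and below for counting error only) and 15.6% of the list. Their base composition differed widely. The ratio of observed to expected CpG was 0.90 at Irf1, 0.89 at Irf8, 0.81 at Irf2 and 0.78 at Irf3, and it was 0.42 at Irf4, 0.31 at Irf9, 0.24 at Irf7 and 0.20 at Irf5. The median of all 13171 promoter peaks was 0.78, and 75.7% were at 0.6 or above, the level used to define CpG islands. Irf8 had 51 CpGs in its promoter peak and Irf5 had 7.

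**Figure D2:**
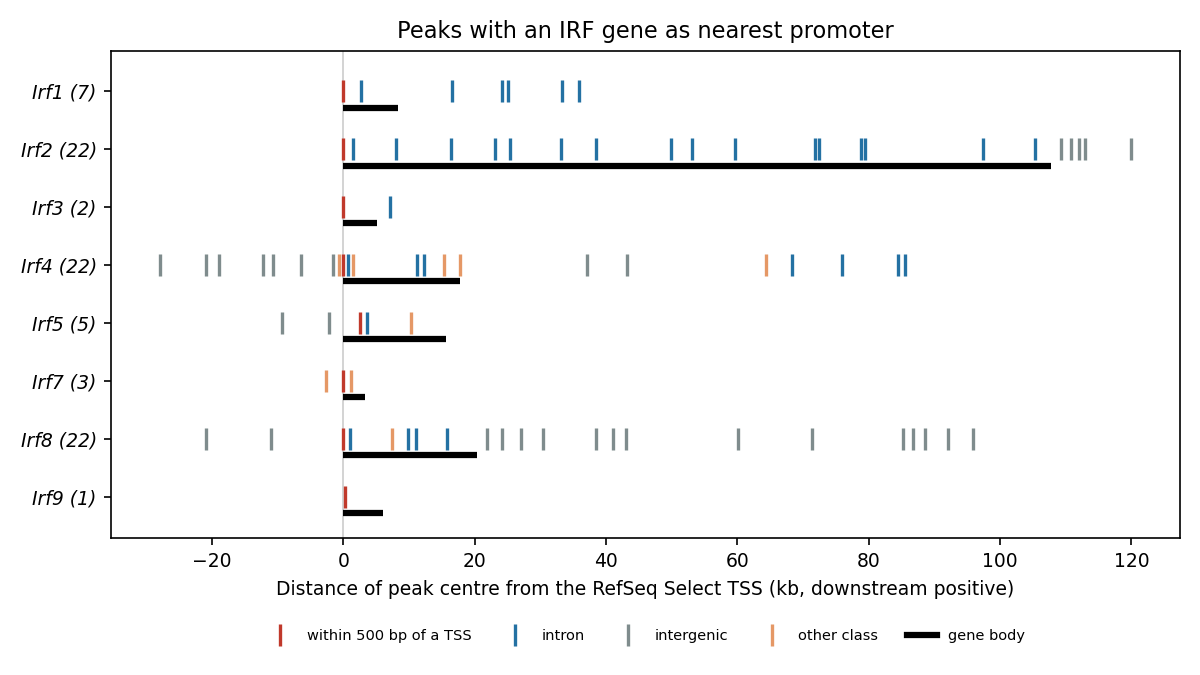
Distance in kb of each of the 84 peaks from the RefSeq Select TSS of its IRF gene, with the number of peaks in brackets, coloured by annotation class, and the gene body to scale as a black bar. Irf2 peaks run through the gene, Irf4 peaks lie on both sides of its TSS, and Irf8 peaks extend downstream to 95856 bp.

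IRF3 and IRF7, the factors switched on by viral nucleic acid, are encoded on chromosome 7 by short genes with few peaks. The Irf3 promoter peak (chr7:44997365-44997863) was centred 34 bp upstream of the TSS and covered the TSS of Bcl2l12, a member of the BCL2 family on the opposite strand, 69 bp away. Bcl2l12 was the nearest promoter of 0 peaks, so the list gives this shared promoter to Irf3 alone. The other Irf3 peak lay 7121 bp downstream, past the end of Irf3 and in an intron of Scaf1. The Irf7 promoter peak (chr7:141266262-141266760, gene on the minus strand) was centred 87 bp upstream of the TSS. Its other peaks were centred 1171 bp downstream, in exon 4, and at -2617 bp, at the end of the neighbouring gene Cdhr5.

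IRF9, which carries interferon signals to ISREs, had the fewest peaks. The single Irf9 peak (chr14:55603915-55604413) was centred 179 bp downstream of the TSS of the Select transcript, so that it covers exon 1, and at -415 bp from the second curated TSS. Between the flanking promoters of Rnf31 and Rec8 it was the only peak in a domain of 23.1 kb.

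IRF1 and IRF2 bind like sequences, IRF1 mainly as an activator and IRF2 mainly as a repressor, and their loci differed in layout. The Irf1 promoter peak (chr11:53769699-53770197) was centred 66 bp upstream of the TSS. A peak 2725 bp downstream lay in an Irf1 intron, and the other 5, from 16499 to 35941 bp, lay beyond the gene in introns of the noncoding gene Gm12216. Upstream of the promoter peak, the list gives 3 peaks, from -21806 to -6262 bp, to the microRNA gene Mir7671 and the next 2 to Il5, the nearest protein-coding gene on that side. The Irf2 promoter peak (chr8:46739385-46739883), centred 111 bp upstream of the TSS, also covered the TSS of Gm16675 on the other strand, 230 bp away. Irf2 spans 107.7 kb, and 16 of its 22 peaks were intronic. A further 5 peaks lay from 1.6 to 12.2 kb beyond the end of the gene. One intronic peak, centred 1411 bp downstream of the TSS, was annotated to a CpG island and had 60 CpGs and 75.8% G and C, more than any of the 8 promoter peaks. Of the genes for IRF2-binding corepressors, Irf2bp2 had 31 peaks, Irf2bpl had 23 and Irf2bp1 had 5.

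IRF5, which acts below Toll-like receptors in macrophages and B cells, had its promoter peak at an alternative start. The peak (chr6:29528967-29529465) was centred 66 bp upstream of the curated TSS at 29529282. It was 2591 bp downstream of the Select TSS at 29526625, whose nearest peak centre was at -2232 bp. Measured from Select TSSs alone, 7 of the 8 genes had a promoter peak, with Irf5 left out. The remaining peaks were centred at -9311 bp, in intron 1 at 3662 bp and in the last exon at 10300 bp from the Select TSS. Irf5 was the nearest promoter of 5 of the 6 peaks between the promoters of Kcp and Tnpo3.

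IRF4, needed for plasma cells and effector T cells, had peaks crowded around its start. The promoter peak (chr13:30748932-30749430) was centred 52 bp upstream of the TSS, and 5 peaks lay within 2 kb of it. Irf4 had more peaks upstream than any other of the 8 genes, 9 in all. Of these, 6 were intergenic from -27929 to -6464 bp, and the peak at -1538 bp was intergenic too. With a limit of 10 kb between neighbouring centres, 15 peaks formed 1 run of 45.8 kb from chr13:30721055-30767306, all with Irf4 as the nearest promoter. Of 39958 such runs in the list, 0.3% had as many peaks. The median of all runs was 1 peak, and they were not limited to runs that hold a promoter. Apart from Irf4 and Irf8, the runs at the IRF promoters had from 1 (Irf9) to 9 peaks (Irf2). The farthest 4 Irf4 peaks lay in introns of Exoc2, from 68380 to 85484 bp downstream.

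IRF8, the partner of PU.1 in myeloid and B cells, had the most peaks of the 8 genes within 100 kb, but not in its whole domain up to the neighbouring promoters. That domain held 33 peaks for Irf8 and 48 for Irf2. Per 100 kb of domain, Irf8 had 8.0 peaks. Denser were Irf2 with 13.1, Irf7 with 10.9, Irf1 with 10.7, Irf4 with 10.5 and Irf3 with 10.2. Less dense were Irf5 with 6.07 and Irf9 with 4.32, and the median over protein-coding genes was 4.44. The promoter peak (chr8:120736010-120736508) was centred 99 bp upstream of the TSS at 120736358. Of the 30 peaks within 100 kb, 11 were upstream and 19 downstream, 23 were intergenic and 5 were centred in the gene. Irf8 was the nearest promoter of 22. The remaining 8, all upstream from -68096 to -34157 bp, were given to Cox4i1, a subunit of cytochrome c oxidase, and only the outermost was the Cox4i1 promoter peak itself. The basal plus extension rule of the study, which extends a gene to its neighbours' promoters, linked 29 of the 30 to Irf8. Of these, 9 were also linked to Cox4i1 and 19 to Foxf1, and the Irf8 promoter peak to no other gene. The gap between neighbouring centres ran from 1177 to 17106 bp with a median of 3602 bp. With a limit of 10 kb, the peaks fell into 7 runs. The run that holds the promoter had 13 peaks over 43.1 kb, all given to Irf8, and 0.596% of all runs had as many. Of the others in the window, the largest was the 7 intergenic peaks from -57750 to -34157 bp that the list gives to Cox4i1. Another 5 peaks lay from 85191 to 95856 bp downstream. On the downstream side the group stood apart. Past its last peak at 95856 bp, the next centre was 234.2 kb from the Irf8 TSS. It lay in a stretch of 348.0 kb without another protein-coding TSS before Foxf1. Upstream, past the outermost peak at -68096 bp, the next centre was 101.7 kb from the Irf8 TSS, just outside the window. Within 200 kb of the TSS there were 46 peaks. Irf8 has a second curated TSS at 120738639, in the gene, with its nearest peak centre at -1203 bp.

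Most IRF peaks were on the downstream side. In all, 64 of 84 (76.2%, interval 66.1 to 84%) were downstream of the TSS from which HOMER measured, against 55.7% of the list. Of the 64, Irf2 and Irf8 gave 40. Without these genes, 16 of 40 peaks (40.0%) were upstream, against 44.2% of the list. Distal peaks, over 10 kb from the TSS, numbered 57 (67.9%, interval 57.3 to 76.9%, against 60.0%), and all came from Irf8 (17), Irf2 (19), Irf4 (16) and Irf1 (5). Introns held 41.7% of IRF peaks and 41.5% of the list, and intergenic sequence 38.1% and 37.6%. Peaks annotated to a repeat numbered 7 (8.33%, interval 4.1 to 16.2%, against 15.1%).

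IRF-type elements were in few peaks, both of the IRF genes and of the list. An ISRE match was found in 4 of the 84 peaks, 1 promoter peak (Irf2) of 8 and 3 of 76 others, 2 at Irf4 and 1 at Irf8. The background was 4.57% of promoter and 7.9% of non-promoter peaks. Over all 84 peaks the ISRE share was 4.76% (interval 1.87 to 11.6%), against 7.38% of the list. An EICE match was found in 10 peaks, 2 of them promoter peaks (Irf2 and Irf5), where the background was 3.66% of promoter and 7.2% of non-promoter peaks. By gene the 10 were 5 of 22 at Irf2, 3 of 5 at Irf5, 1 of 22 at Irf4 and 1 of 22 at Irf8. The total was 11.9% (interval 6.6 to 20.5%) against 6.64% of all peaks, and the interval for the total just includes the background. GAS matches were in 4 of 8 promoter peaks (interval 21.5 to 78.5%), Irf1, Irf2, Irf8 and Irf9, against 9.0% of all promoter peaks. The Irf8 promoter had 2 of them. Outside promoters the GAS spacing was in 6 of 76 peaks (7.89%) against 15.0%. PU.1 matches (GAGGAAGT) were in 0 of 8 promoter peaks, against 4.79%, and 11 of 76 others (14.5%), against 10.2%, with 4 at Irf2, 3 at Irf8, 2 at Irf1 and 2 at Irf4. Such short letters match by composition as well, and peaks of 1 gene share a locus, so no match is a binding site by itself.

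Around Irf8 the E-box CAGGTG, read by ZEB and other E-box factors, was frequent. It was in 18 of the 30 peaks within 100 kb (60.0%, interval 42.3 to 75.4%) against 32.6% of the list, with 29 sites in all. The site numbers per peak ran from 1 to 4, the highest in the peak at 41001 bp, and 12 peaks had none. Both sides took part, with 12 of the 22 peaks given to Irf8 and 6 of the 8 given to Cox4i1. The other IRF genes had it in 16 of 62 peaks (25.8%), with 6 of 22 at Irf2 and 5 of 22 at Irf4. The E-box CAGCTG was in 12 of the 30 (40.0%, interval 24.6 to 57.7%), against 29.8%. Median G and C was 53.5% in the 30 peaks and 48.9% in the list, and non-promoter peaks of the list with CAGGTG had a higher median than those without it (49.1 and 46.9%). The part of base composition in the E-box count was not tested, and CAGGTG, 1 of 11 searched strings, was singled out after its values were seen. The study had already reported motifs of ZEB, Slug and other E-box factors in a predicted Irf8 element from these data. With 1 peak that holds the string left out for that element, the count was 17 of 29 (58.6%).

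**Figure D3:**
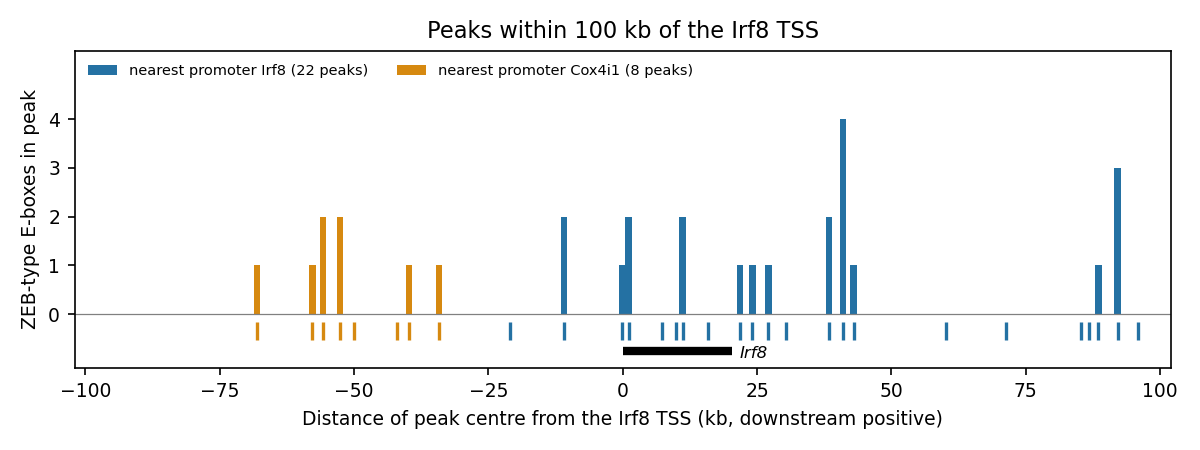
Peaks within 100 kb of the Irf8 TSS by distance in kb, as ticks coloured by nearest promoter (Irf8 or Cox4i1) with the Irf8 gene to scale, and as bars the number of ZEB-type E-boxes (CAGGTG, both strands) in each. Bars stand on both sides of the gene, and the tallest, with 4 sites, is 41001 bp downstream.

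The other strings lay near the background over the 84 peaks. AP-1 (TGA and TCA with 1 base between) was in 17.9% of IRF peaks and 15.3% of the list, the GATA-factor string AGATAA in 22.6 and 24.1%, RUNX (AACCACA) in 11.9 and 16.1%, and C/EBP (TTGC and AA with 2 bases between) in 23.8 and 19.3%. NF-kB (GGGA and TTTCC with 1 base between) was in 0 of 84 and 0.706%. Every string was searched over the full 499 bp and on either strand, and sites of different strings may overlap, since PU.1 and EICE share GGAA.

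**Figure D4:**
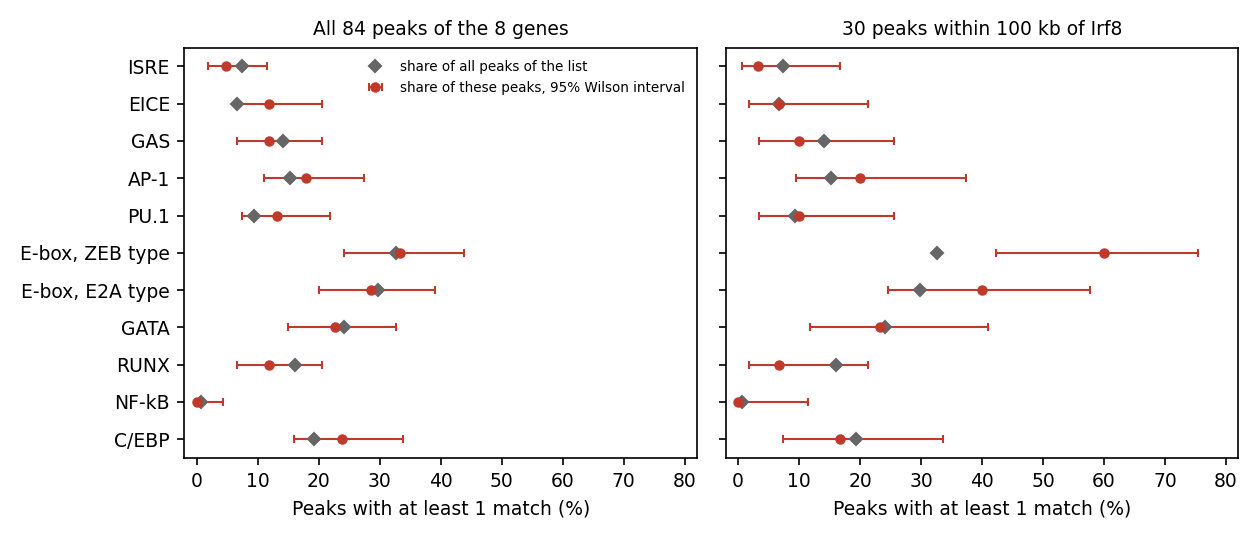
Share of peaks (%) with at least 1 match of each of 11 strings, for the 84 IRF peaks (left) and the 30 peaks within 100 kb of Irf8 (right), as points with 95% Wilson intervals, and for all 84243 peaks as diamonds. The E-box CAGGTG is labelled ZEB type and CAGCTG E2A type, as names only, since neither string tells which E-box factor binds it. On the left every diamond lies within the interval, and on the right the ZEB-type E-box is at 60.0% against 32.6%.

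Genes that act with the IRFs were then counted by role. Of 54 genes in the lists, 44 (81.5%) had a promoter peak, against 60.4% of protein-coding genes. Receptors and JAK-STAT genes had one in 8 of 8, and Jak1, the kinase shared by the interferon receptors, had the most peaks (22). Sensors, adaptors and kinases had one in 13 of 14, the exception being Tmem173, which encodes STING, with its nearest peak at 522 bp, and Tbk1, the kinase of IRF3, had 10 peaks. Partners had one in 8 of 9. Spib was the exception, with its nearest peak at 687 bp, and Jun (35 peaks), Etv6 (34) and Ikzf1 (20) had the most. The PU.1 gene Spi1 had 5. Among targets it was 12 of 14, with Ifit3 and Nlrc5 the exceptions, and Ciita had the most peaks, with 8. The 12 include Tap1 and Ifit1 through peaks that the list gives to other genes. Tap1 was the nearest promoter of 0 peaks, and the nearest peak given to Ifit1 was at 15752 bp. Corepressors had one in 2 of 3, with Irf2bp2 1225 bp from its nearest peak. Interferon genes stood lowest, at 1 of 6 (16.7%, interval 3.01 to 56.4%), with Ifna4 at 187 bp. For Ifnb1, Ifng and Ifne the nearest of their peaks was 634, 1051 and 1756 bp from the TSS, and for Ifnk and Ifna1 it was 11471 and 14674 bp. Ifng nevertheless was the nearest promoter of 10 peaks and Ifnb1 of 8.

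**Figure D5:**
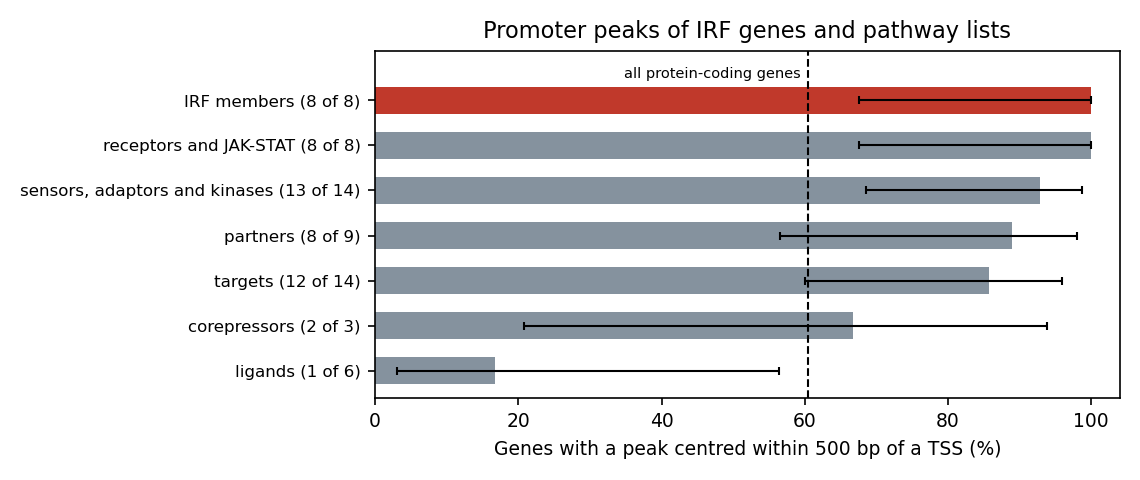
Share of genes (%) with a peak centred within 500 bp of a TSS, for the 8 IRF genes (red) and 6 lists of pathway genes (grey), with 95% Wilson intervals and the share of all protein-coding genes, 60.4%, as a dashed line. The ligand list, with 1 of 6 genes, is the only one below the line.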

How the data were processed

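ATAC-seq libraries had been made from 12 samples of 6 cell types. The authors aligned the reads to mm10 with the ENCODE ATAC-seq pipeline, joined the 6 optimal peak-lists that passed the Irreproducible Discovery Rate step, reduced them to non-overlapping peaks with chromVAR, and annotated these with HOMER (4.10.2 in the submitters' processing notes). Pooling hides the cell type of a peak, and fixed widths hide its extent. The deposited peak score was 0 in every peak and was not used. Positions and distances to the TSS were used as the authors deposited them, in bp. RefSeq annotation release 108 of GRCm38 gave genes and sequence. Depth per sample is unknown.

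Peaks were taken by nearest promoter, counted by class and distance, and searched for 11 strings. CpG ratios, runs and basal plus extension domains (2 kb upstream, 1 kb downstream, up to 1 Mb, without curated domains) were computed from these. Domain bounds and windows used 1 RefSeq Select TSS per gene. Pathway promoters used curated RefSeq TSSs, for 54 genes, with older symbols matched through RefSeq synonyms. Genes named are the 8 members, genes nearest to peaks around Irf8, opposite-strand partners within 1 kb, flanking genes, and pathway genes without a promoter peak or with the most peaks. Others, namely host genes of peaks, Mir7671, Spi1, Tap1 and Ifit1, were named after their values were seen. Some genes of the lists are not reported here. The members, lists and strings were chosen with earlier results of these data known. The string search was tested on simulated data. Alternatives concerned assignment, promoter, window, run and match definitions. Python 3.11.15, pandas 2.3.3, numpy 2.4.6, scipy 1.17.1, pysam 0.24.0 and matplotlib 3.10.9 were used.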

Additional observations from a re-analysis of the deposited data

How the results depend on the processing

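Counts were recomputed under each alternative, and those that moved by over 1.5 times follow the definitions themselves. The 84 peaks of the IRF genes became 143 by basal plus extension domains and 179 within 100 kb of a Select TSS, and 92 or 109 by the nearest Select TSS or with domains limited to 100 kb. Around Irf8, 30 peaks became 18 within 50 kb and 46 within 200 kb. The run at the Irf8 promoter had 2 peaks with a limit of 5 kb and 30 with 20 kb, and these were the same 30 as within 100 kb. ISRE matches fell from 4 to 1 in the central 200 bp (1.19% against 3.16% of all peaks). EICE matches there were 7 (8.33% against 3.42% of all peaks). With 1 mismatch there were 53 ISRE and 50 EICE peaks, shares of 63.1 and 59.5% against 59.2 and 56.5% of all peaks. Promoter counts of genes ran from 6 to 8 and distal peaks from 45 to 65. With HOMER distances, an alternative chosen after seeing the data, 42 of the 54 pathway genes had a promoter peak. A stricter score could not be applied, since every score is 0. No paired analysis was possible because the list holds no values per sample. The pooled list, with no depth and no replicates, limits every statement to the presence of a peak in at least 1 cell type.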

Other observations

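The Irf1 and Irf2 promoter stretches share a run of 10 bases, gaaatgatga, which overlaps the GAS spacing in both. It was noticed in these sequences, so its presence in the pair is no finding. Among the 84243 peaks, 145 hold the run on either strand (0.172%), 10 of them among the 13171 promoter peaks. With TTC and any 3 bases directly before it, the run was in 5 peaks of the list, and the promoter peaks among these were those of Irf1 and Irf2.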
